A study of Saccharomyces cerevisiae with 12 samples.

Results

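Transport receptors of the karyopherin family, the Ran GTPase cycle and the mRNA export machinery make up the 38 budding yeast genes described here, out of 5449 genes measured. They were chosen by name from knowledge of the pathway and matched by current symbol or unique synonym, and all 38 were found, each with a single probe set. They comprise 10 import karyopherins, 5 karyopherins placed with export, 9 genes of the Ran cycle, 6 mRNA export receptors and adaptors, 4 subunits of the THO complex and 4 of TREX-2. Every one of the 38 was above the background level on all 12 arrays. Background was 5.62 on the log2 scale, the 95th percentile of probe sets for another yeast, S. pombe.

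Affymetrix yeast arrays gave the RNA levels of 4 strains of S. cerevisiae, 3 biological replicates each, grown to mid-log phase in rich medium at 30 °C. All strains are given as MATa his3 leu2 met15 ura3, which is the whole genotype of the wild type. The second group carries nup60Δ::KANR, the third ada2Δ::KANR, and the last both nup60Δ::KANR and ada2Δ::KANR. No independent isolates of a strain are named, so each group stands for 1 strain, and p-values measure the spread between cultures of it. Nup60 is a nucleoporin on the nuclear side of the pore, in the structure called the basket, and Ada2 belongs to the acetyltransferase module of the coactivator SAGA.

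Karyopherins carry proteins and some RNAs through the nuclear pore by binding cargo on one side and releasing it on the other. The GTPase Ran sets the direction, since its exchange factor sits on chromatin in the nucleus and its GTPase-activating protein in the cytoplasm. Most mRNA leaves by another route, on the heterodimer of Mex67 and Mtr2, which is recruited by adaptors and by the THO and TREX-2 complexes during transcription. In yeast the nuclear basket holds several of these factors at the pore, and SAGA shares the subunit Sus1 with TREX-2.

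The deleted genes behaved as labelled, and the last group also differed from the others in ways that its label does not give. NUP60 averaged 12.53 in wild type against 6.37 in nup60 and 6.20 in the labelled double deletion, and ADA2 averaged 10.94 in wild type against 4.23 in ada2 and 4.39 in the labelled double deletion. Of the marker genes, HIS3 averaged 12.45, 12.46, 12.53 and 12.42 in wild type, nup60, ada2 and the labelled double deletion. LEU2 averaged 6.66, 6.34, 6.70 and 6.14. Both were above background on all 12 arrays though the strains are given as his3 and leu2, and why was not tested. MET17 (MET15) was below background on all 12. URA3 averaged 12.77 on the arrays labelled as the double deletion and was below background on the other 9. All 7 markers of a cells were lower than wild type there and all 5 markers of alpha cells were higher, with a summed intensity of 9824 to 9855 against 68793 to 72919 for the a list, and of 61258 to 73444 against 1560 to 1829 for the alpha list. Of the a-cell markers 6 were lower in ada2 as well (sum 35626 to 39210), and in nup60 4 were higher and 1 lower (sum 76367 to 85452), while 1 alpha-cell marker was higher in each. HMRA1 (4.38) was below background in the labelled double deletion. HMLALPHA1 and MF(ALPHA)1 were below it in wild type (4.73 and 4.78), nup60 (4.88 and 4.95) and ada2 (5.02 and 5.19). A call for either of them in nup60 or ada2 is therefore at the floor. The loss of both genes, the mating type and URA3 therefore cannot be told apart in any comparison with this group, called the labelled double deletion below. Replicates correlated at 0.993 to 0.999 over all genes. Wild-type array 1 and labelled double array 3 had mean poly-A spike signals of 8.89 and 9.06 on the log2 scale against 6.66 to 7.90 on the others, and values without these 2 arrays are given where, against wild type, they change a call or move a called value by over 1.5 times. RNA came from whole cultures, in which fewer cells of a kind and less RNA per cell cannot be told apart.

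Differences below are on the log2 scale, the first group minus the second, ± the standard error from limma with 3 arrays a group. A gene passed at an adjusted p below 0.05 (Benjamini-Hochberg over all 5449 genes), and "rose" and "fell" are kept for genes that passed. In the nup60 deletion 3 of the 38 genes rose and 15 fell against wild type, where 25.1% of all genes rose and 26.2% fell. The ada2 deletion gave 3 that rose and 10 that fell, against 22.7% and 23.0% of all genes. For the labelled double deletion against wild type the counts were 4 and 18, against 36.1% and 37.1%. Their median difference was -0.13, -0.09 and -0.15 in turn, where that of all genes was -0.02, -0.01 and -0.01. These 3 comparisons share the wild-type arrays. Without the 2 arrays named above the counts were 4 and 18, 5 and 14, and 5 and 22, when the shares of all genes that rose and fell were 30.3% and 33.6%, 31.0% and 30.1%, and 40.7% and 39.2%. The share of the 38 genes that fell in ada2 lies near that of all genes in both fits, at 26.3% with all 12 arrays and 36.8% without the 2. Over all 7 comparisons made, 35 of the 38 genes passed at least once in the fit of all 12 arrays, and KAP104, CSE1 and HPR1 in none. The plot of differences from wild type shows the genes by role.

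**Figure D1:**
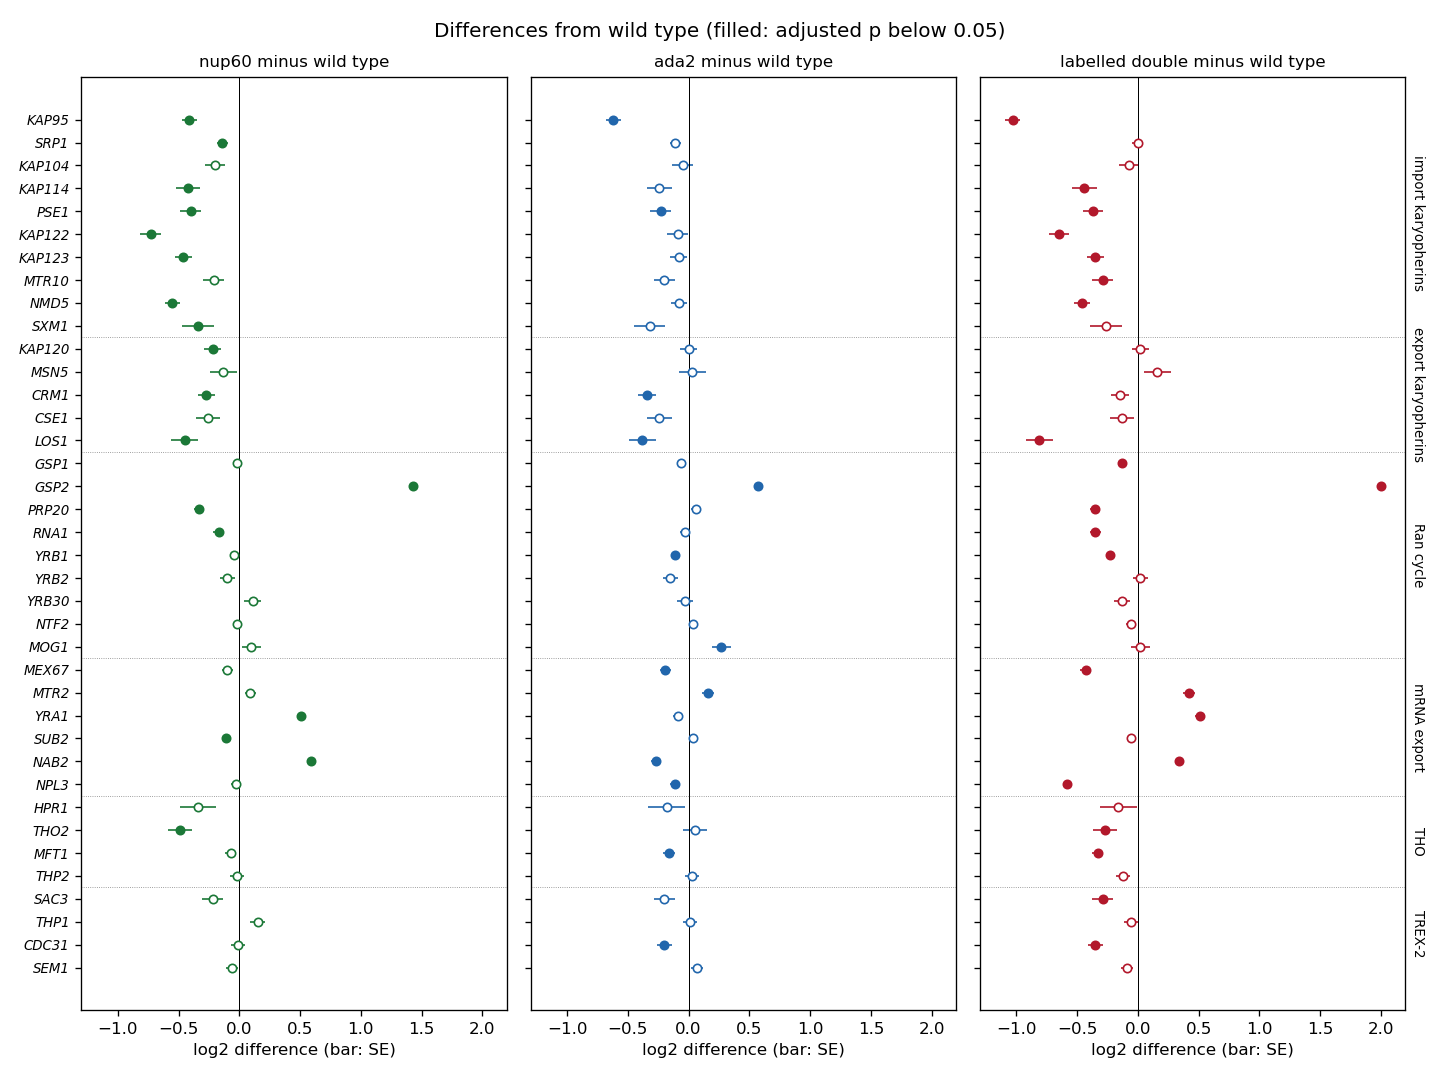
Difference from wild type (log2, bars show the standard error, 3 arrays a group) of each of the 38 genes in the nup60, ada2 and labelled double deletions, grouped by role. Filled points passed at an adjusted p below 0.05. GSP2 lies far to the right in all 3 panels (1.43, 0.57 and 2.0), and the import karyopherins lie left of 0 in the nup60 panel.

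The Ran genes held the largest change among the 38. GSP2 and GSP1 both encode yeast Ran. GSP2 read 11.79, 11.80 and 11.77 on the 3 wild-type arrays, 13.26, 13.18 and 13.20 in nup60, 12.34, 12.37 and 12.34 in ada2, and 13.81, 13.78 and 13.75 in the labelled double deletion. The 4 groups did not overlap, with wild type lowest, then ada2, then nup60, then the labelled double deletion. GSP2 rose by 1.43 ± 0.034 in nup60 (adjusted p = 2.04e-10), a 2.69-fold change that ranked 77 by size among 5449 genes. It rose by 0.57 ± 0.034 in ada2 (1.48-fold, adjusted p = 3.27e-07) and was 4.0-fold higher than wild type in the labelled double deletion (2.0 ± 0.034, adjusted p = 3.96e-12). Its departure from the sum of the single-deletion differences was 0.00, with a 95% interval of -0.10 to 0.11.

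GSP1, the other Ran gene, read 14.88, 14.93 and 14.91 in wild type, 14.89, 14.86 and 14.90 in nup60, 14.84, 14.84 and 14.87 in ada2, and 14.79, 14.80 and 14.74 in the labelled double deletion. Wild type and nup60 overlapped, and all 3 labelled double arrays lay below all of the others. The difference from wild type was -0.02 ± 0.031 in nup60 and -0.06 ± 0.031 in ada2, and neither passed, though ada2 did without the 2 arrays with high spikes (-0.07, adjusted p = 0.0468). GSP1 fell by 0.13 in the labelled double deletion (SE 0.031, adjusted p = 0.00319), a call lost under quantile normalization (-0.07, adjusted p = 0.0683). The genes are close in sequence, their probe set names carry no mark of shared sequence, and hybridization of one transcript to the other's probes was not tested.

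**Figure D2:**
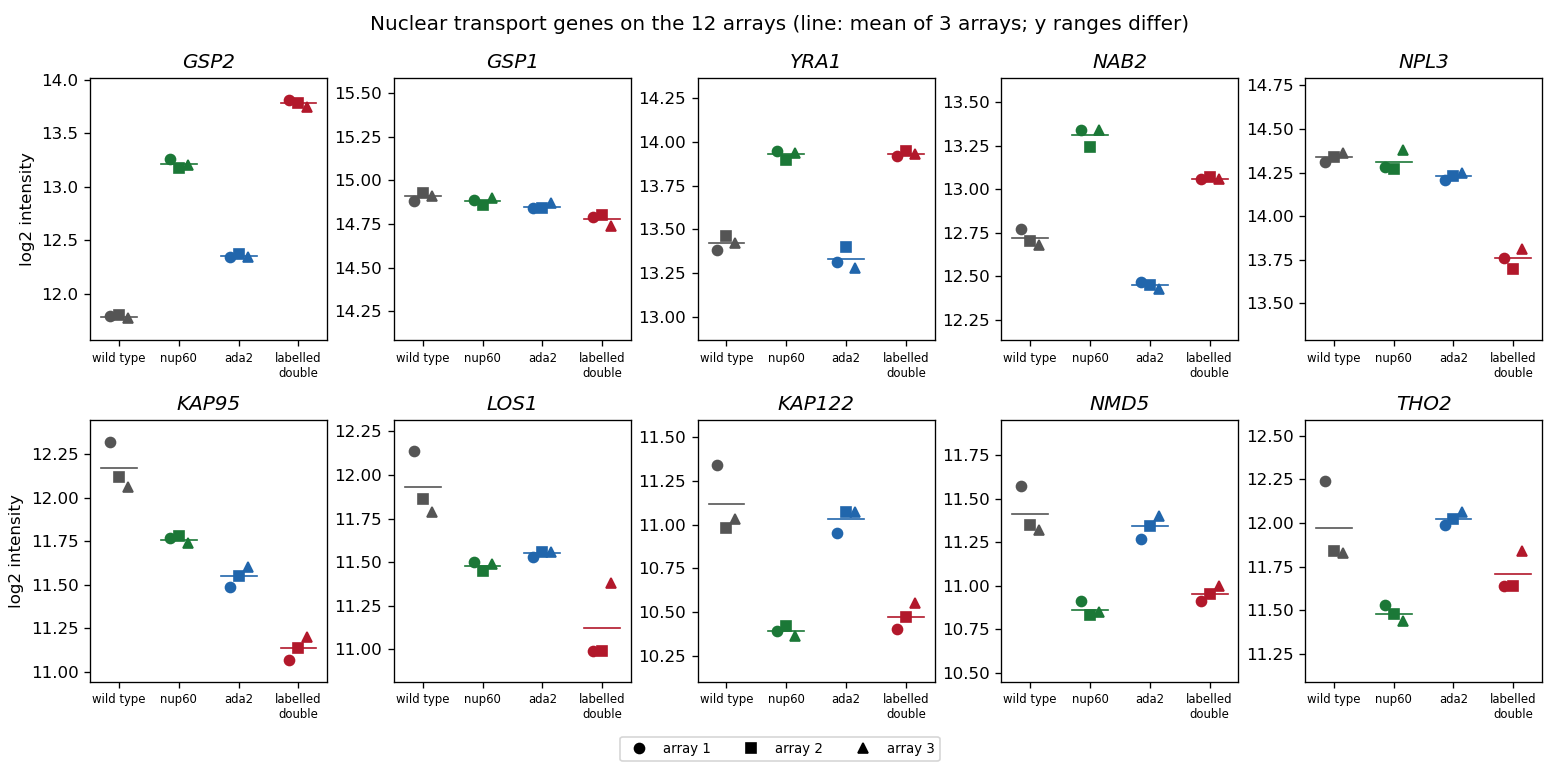
Log2 intensity of 10 genes on each array (circle, array 1; square, array 2; triangle, array 3; line, mean of 3), with a different y range in each panel. The GSP2 groups are separate on all 12 arrays, the GSP1 values lie between 14.74 and 14.93, and wild-type array 1 is the highest wild-type array for KAP95, LOS1, KAP122, NMD5 and THO2.

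Both regulators of the GTPase were lower in nup60. PRP20, the nuclear exchange factor for Ran, read 12.95, 12.97 and 12.98 in wild type, 12.69, 12.57 and 12.64 in nup60, 13, 13.07 and 13.02 in ada2, and 12.60, 12.57 and 12.66 in the labelled double deletion. The 6 arrays without NUP60 lay below the 6 arrays with it. PRP20 fell by 0.33 in nup60 (SE 0.04, adjusted p = 6.84e-05) and by 0.35 in the labelled double deletion (SE 0.04, adjusted p = 1.29e-05), and its ada2 difference of 0.06 ± 0.04 did not pass. RNA1, the GTPase-activating protein, read 13.19, 13.23 and 13.28 in wild type, 13.06, 13.02 and 13.12 in nup60, 13.18, 13.25 and 13.20 in ada2, and 12.88, 12.95 and 12.83 in the labelled double deletion. The labelled double arrays were the lowest and the nup60 arrays next, while wild type and ada2 overlapped. RNA1 fell by 0.17 in nup60 (SE 0.043, adjusted p = 0.00686), by 0.35 in the labelled double deletion (adjusted p = 2.07e-05), and by 0.18 from nup60 to the labelled double deletion (adjusted p = 0.00362).

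MOG1, which binds Ran and releases its nucleotide, read 10.94, 11.16 and 11.16 in wild type, 11.19, 11.19 and 11.17 in nup60, 11.36, 11.44 and 11.26 in ada2, and 11.23, 11.13 and 10.96 in the labelled double deletion. The ada2 arrays were the highest, and wild type and labelled double overlapped. MOG1 rose by 0.27 ± 0.076 in ada2 (adjusted p = 0.0143), a call not kept without ada2 array 2 (0.23, adjusted p = 0.0575). Of the remaining Ran genes, YRB1, a Ran-binding protein that assists GTP hydrolysis, fell by 0.23 in the labelled double deletion (SE 0.036, adjusted p = 0.000156). YRB2, a cofactor of Crm1, rose by 0.17 from ada2 to the labelled double deletion (SE 0.062, adjusted p = 0.0321), and 0.10 remained without labelled double array 3 (adjusted p = 0.11). Without both arrays with high spikes YRB2 passed in ada2 against wild type (-0.11, adjusted p = 0.0401), where it had not with all 12 (-0.15, adjusted p = 0.0775), and NTF2 did in the labelled double deletion (-0.08, adjusted p = 0.0361, against -0.06 and 0.135). YRB30 fell by 0.24 from nup60 to the labelled double deletion (adjusted p = 0.00966). NTF2, the import receptor of Ran itself, fell by 0.11 from ada2 to the labelled double deletion (adjusted p = 0.0192), a call lost without ada2 array 1 (-0.10, adjusted p = 0.0563), ada2 array 3 (-0.10, adjusted p = 0.0602) or labelled double array 3 (-0.09, adjusted p = 0.0512).

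Of the 15 karyopherins 11 fell in nup60 (73.3%, against 26.2% of all genes) and none rose, with a median of -0.34 and a range from -0.73 to -0.13. In ada2 4 of 15 fell (26.7%, against 23.0% of all genes, median -0.20), a share near that of all genes. In the labelled double deletion 8 of 15 fell (53.3%, against 37.1%, median -0.29), and none rose in either group. The karyopherins also stood high on the 2 arrays with high spikes. All 15 were higher on wild-type array 1 than on the mean of wild-type arrays 2 and 3, by 0.16 to 0.45, and 14 of 15 were higher on labelled double array 3 than on the other 2. Without those arrays 12 of 15 fell in nup60 (80.0%, against 33.6% of all genes, median -0.20). Then 5 fell and 1 rose in ada2 (33.3% that fell, against 30.1%, median -0.08), and 10 fell and 1 rose in the labelled double deletion (66.7% that fell, against 39.2%, median -0.26). The part of these arrays in the remaining differences was not tested.

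The long genes of the set carried this excess. Karyopherin genes were 1629 to 3675 bases long (median 3099) and Ran cycle genes 378 to 1449, by the RefSeq R64 annotation. The excess of wild-type array 1 had a median of 0.32 for karyopherins and of -0.04 for Ran genes. Over the 38 genes its correlation with length was 0.77 (Pearson) and 0.74 (Spearman), values from single arrays given as a description. Over all 5449 genes the same values were 0.40 and 0.49. Among the 461 genes longer than 3000 bases, a limit chosen after seeing the data, the median nup60 difference was -0.19, and -0.10 without the 2 arrays. The 11 of the 38 genes in that class had medians of -0.42 and -0.29. For nup60 minus ada2, whose group means use neither of the 2 arrays, the medians were -0.18 for the 11 and -0.15 for the 461. Of the 15 karyopherins 4 were lower in nup60 than in ada2 (26.7%, against 26.9% of all genes). In the fit without the 2 arrays 9 were lower (60%, against 36.7%). Whether karyopherins fell in nup60 beyond other long genes was not tested.

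**Figure D3:**
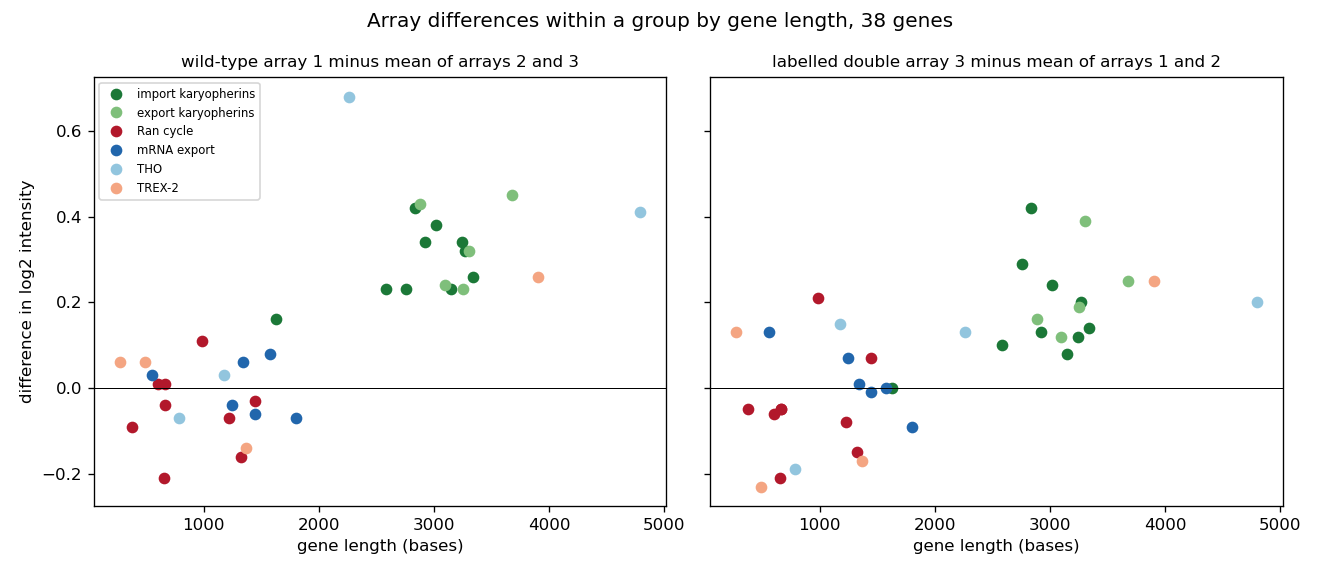
Difference in log2 intensity between wild-type array 1 and the mean of arrays 2 and 3 (left), and between labelled double array 3 and the mean of arrays 1 and 2 (right), against gene length in bases for the 38 genes, coloured by role. All 15 karyopherins lie above 0 on the left, and Ran cycle genes lie on both sides of it.

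Among import receptors, KAP95 changed in every pairwise comparison. It encodes importin beta, which carries classical import cargo together with Srp1. KAP95 read 12.32, 12.12 and 12.06 in wild type, 11.77, 11.78 and 11.74 in nup60, 11.49, 11.55 and 11.60 in ada2, and 11.07, 11.14 and 11.20 in the labelled double deletion. No groups overlapped, and the order ran from wild type through nup60 and ada2 down to the labelled double deletion. KAP95 fell by 0.41 in nup60 (SE 0.063, adjusted p = 0.00037), by 0.62 in ada2 (adjusted p = 1.98e-05) and by 1.03 in the labelled double deletion (adjusted p = 7.64e-08, a 2.04-fold change). Without the 2 arrays these were -0.33, -0.54 and -0.99, and all passed. Its departure from the sum of single differences was 0.00 (95% interval -0.20 to 0.19). The nup60 minus ada2 difference of 0.21 (adjusted p = 0.0157) was lost without ada2 array 1 (0.18, adjusted p = 0.0622).

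KAP122, an importer of the general transcription factor TFIIA, read 11.34, 10.98 and 11.03 in wild type, 10.39, 10.42 and 10.36 in nup60, 10.95, 11.07 and 11.07 in ada2, and 10.40, 10.47 and 10.55 in the labelled double deletion. Arrays with NUP60 and arrays without it did not overlap, while wild type overlapped ada2 and nup60 overlapped the labelled double deletion. KAP122 fell by 0.73 in nup60 (SE 0.084, adjusted p = 4.53e-05) and by 0.65 in the labelled double deletion (adjusted p = 3.47e-05), and its ada2 difference was -0.09 ± 0.084 (adjusted p = 0.403). NMD5, an importer of the elongation factor TFIIS and the kinase Hog1, read 11.57, 11.35 and 11.32 in wild type, 10.91, 10.83 and 10.85 in nup60, 11.27, 11.34 and 11.40 in ada2, and 10.91, 10.95 and 11 in the labelled double deletion. The overlaps were those of KAP122. NMD5 fell by 0.55 in nup60 (SE 0.064, adjusted p = 5.18e-05) and by 0.46 in the labelled double deletion (adjusted p = 6.33e-05), with -0.08 ± 0.064 in ada2 (adjusted p = 0.354). Without the 2 arrays KAP122 and NMD5 differed by -0.62 and -0.47 in nup60, and both passed.

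KAP123, the main importer of ribosomal proteins, fell by 0.46 in nup60 (SE 0.07, adjusted p = 0.000311) and by 0.35 in the labelled double deletion (adjusted p = 0.000932), and its ada2 difference of -0.08 did not pass. KAP114, an importer of the TATA-binding protein, fell by 0.42 in nup60 (SE 0.1, adjusted p = 0.00653) and by 0.44 in the labelled double deletion (adjusted p = 0.00285). PSE1, also called KAP121, an importer of transcription factors and ribosomal proteins, fell by 0.40 in nup60 (SE 0.084, adjusted p = 0.0028) and by 0.37 in the labelled double deletion (adjusted p = 0.00202). Its fall of 0.23 in ada2 (adjusted p = 0.0432) was lost without wild-type array 1 (-0.13, adjusted p = 0.109), and also without any single nup60 or ada2 array or labelled double array 2, where it stayed at -0.23. SRP1, importin alpha, fell by 0.14 in nup60 (adjusted p = 0.0282), which was -0.09 without wild-type array 1 (adjusted p = 0.0766). SXM1, an importer of the RNA-binding protein Lhp1, fell by 0.34 in nup60 (adjusted p = 0.0443), which was -0.20 without wild-type array 1 (adjusted p = 0.144). Both calls were lost without any single nup60 array too. Without the 2 arrays with high spikes both passed, SRP1 at -0.09 (adjusted p = 0.0494) and SXM1 at -0.20 (adjusted p = 0.00367), and SXM1 also passed in ada2 (-0.18, adjusted p = 0.00801) and in the labelled double deletion (-0.26, adjusted p = 0.000965). In that fit PSE1 in ada2 was -0.13 and passed (adjusted p = 0.00841), and KAP114, PSE1 and KAP123 in nup60 were -0.29, -0.29 and -0.38 and passed. MTR10, the importer of the mRNA export factor Npl3, passed against wild type in the labelled double deletion (-0.29, adjusted p = 0.0112), where it was -0.17 without wild-type array 1 (adjusted p = 0.0181). KAP104, the importer of the poly(A)-binding protein Nab2, had differences of -0.20, -0.05 and -0.07 from wild type, and none passed with all 12 arrays. Its nup60 difference was -0.12 and passed without the 2 arrays (adjusted p = 0.0171).

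In the export group, LOS1, the exporter of tRNA, fell in all 3 deletion groups. It read 12.14, 11.86 and 11.79 in wild type, 11.50, 11.45 and 11.49 in nup60, 11.53, 11.56 and 11.56 in ada2, and 10.99, 10.99 and 11.38 in the labelled double deletion. Wild type was highest and the labelled double deletion lowest without overlap, nup60 and ada2 lay between them, and labelled double array 3 stood well above its replicates. LOS1 fell by 0.45 in nup60 (SE 0.11, adjusted p = 0.00547), by 0.38 in ada2 (adjusted p = 0.0154) and by 0.81 in the labelled double deletion (adjusted p = 4.52e-05). The values were -0.34, -0.27 and -0.83 without the 2 arrays, and all passed. Its departure from the sum of the single differences was 0.02 (95% interval -0.32 to 0.36), and without the 2 arrays it was -0.21 (adjusted p = 0.00328), which passed with the opposite sign. The fall of 0.36 from nup60 to the labelled double deletion (adjusted p = 0.0143) was -0.29 without labelled double array 1 (adjusted p = 0.0564) and -0.29 without labelled double array 2 (adjusted p = 0.0584).

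CRM1, the exporter of proteins with leucine-rich signals and of pre-ribosomes, read 12.02, 11.79 and 11.79 in wild type, 11.60, 11.61 and 11.57 in nup60, 11.46, 11.56 and 11.55 in ada2, and 11.59, 11.71 and 11.84 in the labelled double deletion. Both single deletions lay below all wild-type arrays, and the labelled double arrays overlapped wild type and nup60. CRM1 fell by 0.27 in nup60 (SE 0.073, adjusted p = 0.0105) and by 0.34 in ada2 (adjusted p = 0.00307), and its difference in the labelled double deletion was -0.15 (adjusted p = 0.0849), which passed at -0.14 without the 2 arrays (adjusted p = 0.0232). MSN5, an exporter of phosphorylated proteins such as Pho4, read 12.44, 12.01 and 11.98 in wild type, 12, 12.04 and 12 in nup60, 12.18, 12.14 and 12.19 in ada2, and 12.23, 12.22 and 12.48 in the labelled double deletion. The labelled double arrays lay above nup60 and ada2, and wild-type array 1 alone reached their level. MSN5 rose by 0.29 ± 0.11 from nup60 to the labelled double deletion (adjusted p = 0.0363), a call lost without labelled double array 3 (0.21, adjusted p = 0.134) or without any single nup60 array (0.28 to 0.31, adjusted p = 0.0661 to 0.0845). Against wild type its differences of 0.03 in ada2 and 0.16 in the labelled double deletion did not pass, and without the 2 arrays they were 0.18 (adjusted p = 0.00058) and 0.23 (adjusted p = 7.99e-05) and passed.

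KAP120, which has been linked to pre-ribosome export and to import of the ribosome assembly factor Rpf1, fell by 0.22 in nup60 (SE 0.071, adjusted p = 0.0253) and rose by 0.24 from nup60 to the labelled double deletion (adjusted p = 0.0124). The nup60 call was lost without wild-type array 1 (-0.14, adjusted p = 0.0713), nup60 array 2 (-0.21, adjusted p = 0.0717) or nup60 array 3 (-0.21, adjusted p = 0.065), and passed without both arrays with high spikes (-0.14, adjusted p = 0.0361). CSE1, which returns Srp1 to the cytoplasm, had differences of -0.26, -0.24 and -0.13 from wild type in nup60, ada2 and the labelled double deletion, and none passed.

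Of the 6 mRNA export receptors and adaptors, 2 rose and 1 fell in nup60. With so few genes these shares (33.3% and 16.7%) lie near the 25.1% and 26.2% of all genes. NAB2, a nuclear poly(A)-binding protein, read 12.77, 12.70 and 12.68 in wild type, 13.34, 13.24 and 13.34 in nup60, 12.47, 12.45 and 12.43 in ada2, and 13.06, 13.07 and 13.06 in the labelled double deletion. No groups overlapped: nup60 was highest, then the labelled double deletion, wild type and ada2. NAB2 rose by 0.59 ± 0.037 in nup60 (1.5-fold, adjusted p = 4.35e-07), fell by 0.27 in ada2 (adjusted p = 0.00017) and rose by 0.34 ± 0.037 in the labelled double deletion (adjusted p = 9.17e-06). The difference between nup60 and ada2 was 0.86 ± 0.037 (adjusted p = 1.79e-08), and the departure from the sum was 0.02 (95% interval -0.09 to 0.14).

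YRA1, an RNA-binding adaptor that hands mRNA to Mex67, read 13.38, 13.46 and 13.42 in wild type, 13.95, 13.90 and 13.94 in nup60, 13.31, 13.40 and 13.28 in ada2, and 13.92, 13.95 and 13.93 in the labelled double deletion. The 6 arrays without NUP60 lay above the 6 with it. YRA1 rose by 0.51 ± 0.038 both in nup60 (1.42-fold, adjusted p = 1.74e-06) and in the labelled double deletion (adjusted p = 3.91e-07), and its difference between those groups was 0.00 (95% interval -0.08 to 0.08). The ada2 difference of -0.09 did not pass (adjusted p = 0.074), and was -0.11 and passed without the 2 arrays with high spikes (adjusted p = 0.0322). YRA1 has an intron, and spliced and unspliced RNA were not separated by the probe set.

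NPL3, a shuttling SR-like protein bound to nascent mRNA, had another layout. It read 14.31, 14.34 and 14.36 in wild type, 14.28, 14.27 and 14.38 in nup60, 14.21, 14.23 and 14.25 in ada2, and 13.76, 13.70 and 13.81 in the labelled double deletion. The labelled double arrays lay far below the other 9, which spanned 14.21 to 14.38. NPL3 fell by 0.58 in the labelled double deletion (SE 0.04, 1.5-fold, adjusted p = 1.74e-07), against -0.03 ± 0.04 in nup60 (adjusted p = 0.54). Its small fall in ada2 (-0.11, adjusted p = 0.0439) was lost under median centring (-0.08, adjusted p = 0.158), and without wild-type array 3 (-0.10, adjusted p = 0.118), and without 7 other single arrays.

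The receptor subunits moved in opposite directions. MEX67, the large subunit, fell by 0.19 in ada2 (SE 0.046, adjusted p = 0.00716) and by 0.43 in the labelled double deletion (adjusted p = 7.87e-06), and its nup60 difference of -0.10 did not pass (adjusted p = 0.0943), but did at -0.12 without the 2 arrays with high spikes (adjusted p = 0.031). MTR2, the small subunit, rose by 0.42 ± 0.047 in the labelled double deletion (adjusted p = 1.18e-05), with 0.09 in nup60 (adjusted p = 0.129). Its rise of 0.16 in ada2 (adjusted p = 0.0181) was lost without wild-type array 3 (0.13, adjusted p = 0.0667) or ada2 array 2 (0.14, adjusted p = 0.0684). SUB2, the DEAD-box helicase that loads Yra1, fell by 0.11 in nup60 (SE 0.03, adjusted p = 0.00907) and differed by 0.04 in ada2 and -0.06 in the labelled double deletion, neither of which passed.

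THO couples transcription elongation to export, and 1 of its 4 subunits fell in nup60, a share near the 26.2% of all genes. THO2, the largest subunit, read 12.24, 11.84 and 11.83 in wild type, 11.53, 11.48 and 11.44 in nup60, 11.99, 12.02 and 12.06 in ada2, and 11.64, 11.64 and 11.84 in the labelled double deletion. The nup60 arrays lay below all others, and labelled double array 3 reached the level of wild-type arrays 2 and 3. THO2 fell by 0.49 in nup60 (SE 0.099, adjusted p = 0.00193), which was -0.35 without the 2 arrays (adjusted p = 1.84e-05). In ada2 it differed by 0.05 (adjusted p = 0.686), and without the 2 arrays by 0.19, which passed (adjusted p = 0.000982). Its fall of 0.27 in the labelled double deletion (adjusted p = 0.0302) was -0.13 without wild-type array 1 (adjusted p = 0.0678), -0.23 without labelled double array 1 (adjusted p = 0.0896) and -0.23 without labelled double array 2 (adjusted p = 0.0943).

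MFT1 read 11.46, 11.45 and 11.41 in wild type, 11.36, 11.39 and 11.36 in nup60, 11.21, 11.33 and 11.31 in ada2, and 11.06, 11.06 and 11.20 in the labelled double deletion. Labelled double arrays were the lowest and wild-type arrays the highest, and no groups overlapped. MFT1 fell by 0.33 in the labelled double deletion (SE 0.047, adjusted p = 6.57e-05) and by 0.16 in ada2 (adjusted p = 0.02), the latter lost without ada2 array 1 (-0.12, adjusted p = 0.0836) or wild-type array 2 (-0.15, adjusted p = 0.0539). THP2 read 10.17, 10.26 and 10.22 in wild type, 10.16, 10.21 and 10.23 in nup60, 10.21, 10.33 and 10.20 in ada2, and 10.15, 10.17 and 9.97 in the labelled double deletion. The ada2 arrays lay above those of the labelled double deletion, and wild type overlapped both single deletions. THP2 fell by 0.15 from ada2 to the labelled double deletion (SE 0.058, adjusted p = 0.0385), which was -0.09 without labelled double array 3 (adjusted p = 0.136) and -0.11 without ada2 array 2 (adjusted p = 0.148). HPR1 spanned 9.37 to 10.11 on the wild-type arrays, with array 1 higher by 0.68 than the mean of the others, and its differences of -0.34, -0.18 and -0.16 from wild type did not pass.

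TREX-2 links genes and mRNA to the basket, and none of its 4 subunits in the set passed in nup60 with all 12 arrays, where 25.1% of all genes rose and 26.2% fell. In ada2 1 of 4 fell (25%, against 23.0% of all genes) and in the labelled double deletion 2 of 4 (50%, against 37.1%). With so few genes these shares lie near those of all genes. In nup60 SAC3 (-0.13, adjusted p = 0.0406) and THP1 (0.10, adjusted p = 0.0423) passed without the 2 arrays with high spikes. CDC31, the yeast centrin, read 11.44, 11.40 and 11.38 in wild type, 11.38, 11.39 and 11.43 in nup60, 11.25, 11.22 and 11.15 in ada2, and 11.16, 11.11 and 10.91 in the labelled double deletion. Wild type and nup60 overlapped above ada2 and the labelled double deletion, which overlapped each other. CDC31 fell by 0.35 in the labelled double deletion (SE 0.06, adjusted p = 0.000312) and by 0.20 in ada2 (adjusted p = 0.0213), the latter lost without ada2 array 3 (-0.17, adjusted p = 0.0797) or wild-type array 1 (-0.18, adjusted p = 0.0517). Its nup60 difference was -0.01 ± 0.06.

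SAC3, the scaffold of TREX-2, read 10.89, 10.67 and 10.59 in wild type, 10.55, 10.41 and 10.54 in nup60, 10.50, 10.51 and 10.55 in ada2, and 10.38, 10.31 and 10.59 in the labelled double deletion. Labelled double array 3 met the lowest wild-type array, and the 3 deletion groups overlapped each other. SAC3 fell by 0.29 in the labelled double deletion (SE 0.085, adjusted p = 0.00961), and its differences of -0.22 and -0.20 in the single deletions did not pass with all 12 arrays. THP1, which binds RNA with Sac3, read 11.05, 11.19 and 11.18 in wild type, 11.29, 11.22 and 11.34 in nup60, 11.11, 11.19 and 11.14 in ada2, and 11.11, 11.16 and 10.96 in the labelled double deletion. The nup60 arrays were above all others. THP1 fell by 0.21 from nup60 to the labelled double deletion (SE 0.058, adjusted p = 0.00936), and 0.15 in nup60 against wild type did not pass with all 12 arrays (adjusted p = 0.0536). SEM1, shared with the proteasome, fell by 0.17 from ada2 to the labelled double deletion (SE 0.049, adjusted p = 0.0102), and its differences from wild type of -0.06, 0.07 and -0.09 did not pass, the last of them passing without the 2 arrays (-0.12, adjusted p = 0.0369).

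The single deletions were also compared directly. From ada2 to nup60, 5 of the 38 genes were higher and 9 lower, against 25.9% and 26.9% of all genes, and without the 2 arrays 8 were higher and 17 lower, against 32.8% and 36.7%. The higher genes were NAB2 (0.86), GSP2 (0.86), YRA1 (0.60), KAP95 (0.21) and CDC31 (0.19). The lower ones included KAP122 (-0.64 ± 0.084, adjusted p = 8.26e-05), THO2 (-0.54 ± 0.099, adjusted p = 0.000844), NMD5 (-0.47 ± 0.064, adjusted p = 0.000112), PRP20 (-0.40 ± 0.04, adjusted p = 1.27e-05) and KAP123 (-0.38 ± 0.07, adjusted p = 0.000909).

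Against the single deletions, the labelled double deletion had 5 genes higher and 12 lower than nup60 (13.2% and 31.6%, against 33.1% and 30.6% of all genes). The share lower than nup60 lies near that of all genes. Compared with ada2, 6 were higher and 18 lower (15.8% and 47.4%, against 35.2% and 33.9%). Relative to nup60, KAP95 fell by 0.62 (SE 0.063, adjusted p = 9.84e-06) and NPL3 by 0.55 (SE 0.04, adjusted p = 7.94e-07), and GSP2 rose by 0.57 ± 0.034 (adjusted p = 1.9e-07). Relative to ada2, GSP2 rose by 1.43 ± 0.034 (adjusted p = 9.46e-11), and NAB2 and YRA1 rose by 0.61 and 0.60. KAP122 fell by 0.56 and PRP20 by 0.42 in that comparison.

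A departure of the labelled double deletion from the sum of the single differences was tested as the interaction. It passed for 5 of the 38 genes, 3 above the sum and 2 below, against 20.6% and 18.5% of all genes. CRM1 lay 0.46 above the sum (SE 0.1, adjusted p = 0.00552), SRP1 0.24 (SE 0.066, adjusted p = 0.0141) and YRB2 0.27 (SE 0.088, adjusted p = 0.0347). NPL3 lay below it by -0.44 (SE 0.056, adjusted p = 0.000184) and MOG1 by -0.35 (SE 0.11, adjusted p = 0.0261). Of 22 alternatives 7 lost the YRB2 call, such as leaving out wild-type array 1 (0.23, adjusted p = 0.0641) or nup60 array 3 (0.23, adjusted p = 0.087). The MOG1 call was lost under 5, without any single nup60 array, ada2 array 1 or ada2 array 2 (-0.31, adjusted p = 0.0638 without the last). Of 15 karyopherins 14 lay above the sum and KAP95 at 0.00, with a median of 0.22, and the median was 0.06 without the 2 arrays with high spikes. The 461 genes longer than 3000 bases had medians of 0.22 and 0.08. For the other 33 genes no departure was shown, which does not show that the deletions add, and the intervals are in the plot of departures.

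**Figure D4:**
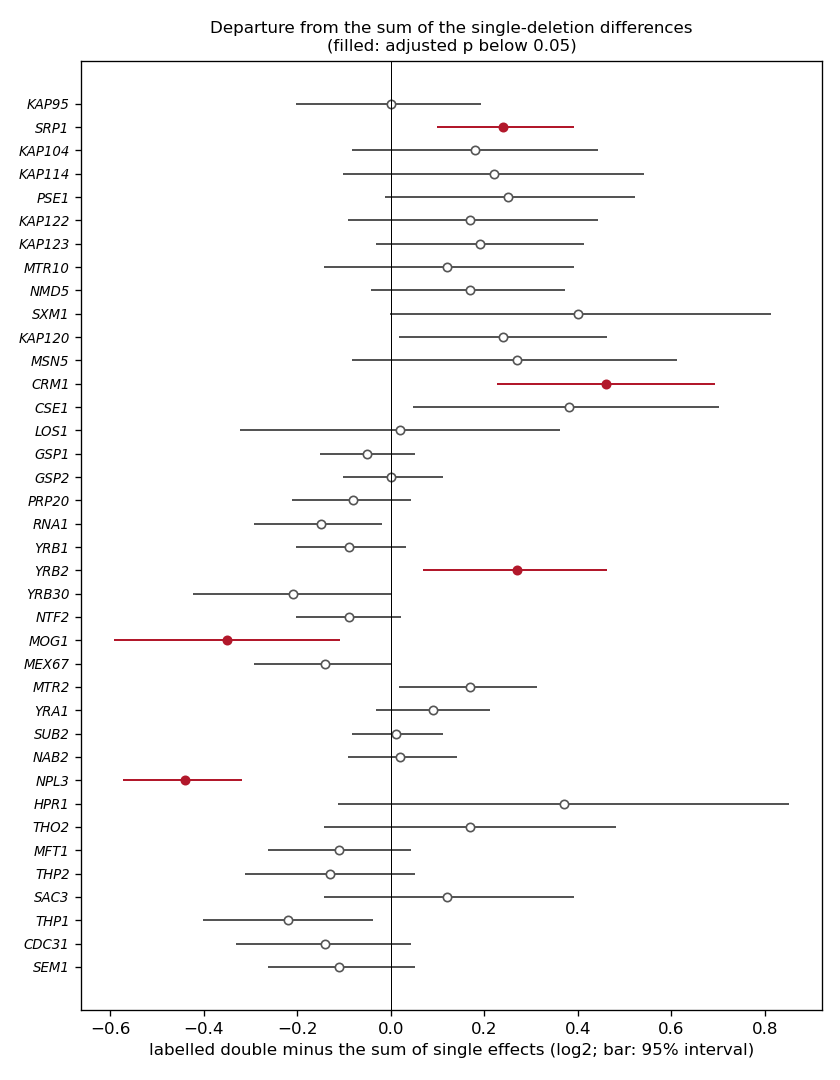
Labelled double deletion minus wild type, less the sum of the nup60 and ada2 differences (log2), for the 38 genes, with 95% intervals from limma that are not adjusted for the number of genes. Filled points passed at an adjusted p below 0.05: CRM1, SRP1 and YRB2 above 0, NPL3 and MOG1 below it.

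The other genes of nuclear transport were taken from 3 lists of 30 genes in all, every one of which was measured. Of the factors of pre-ribosome export, 7 of 7 fell in nup60 (median -0.34), 5 of 7 in ada2 (median -0.28) and 7 of 7 in the labelled double deletion (median -0.70). Of all genes 26.2%, 23.0% and 37.1% fell in these comparisons, with medians of -0.02, -0.01 and -0.01. In the labelled double deletion ALB1 fell by 0.86 (SE 0.047, adjusted p = 3.13e-08), ARX1, a shuttling export factor of the large subunit, by 0.84 (SE 0.029, adjusted p = 8.43e-10), ECM1 by 0.79 (SE 0.043, adjusted p = 2.63e-08), NMD3, the adaptor to Crm1, by 0.70 (SE 0.046, adjusted p = 1.32e-07) and LTV1 by 0.59 (SE 0.04, adjusted p = 1.47e-07). Of 12 further mRNA export genes, 1 rose and 7 fell in nup60, 1 rose and 2 fell in ada2, and 1 rose and 9 fell in the labelled double deletion. The shares that fell were 58.3%, 16.7% and 75.0%, and the ada2 share was below the 23.0% of all genes, but without the 2 arrays with high spikes 4 of 12 fell there (33.3%, against 30.1%). YRA2, a relative of YRA1, fell by 0.35 in nup60 (SE 0.052, adjusted p = 0.000254) and by 1.1 in the labelled double deletion (adjusted p = 1.02e-08), and DBP5, the helicase that strips Mex67 from mRNA at the pore, fell by 0.13 and 0.23.

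Of 11 import adaptors and tRNA export genes, 5 rose and 2 fell in nup60, 2 rose and 2 fell in ada2, and 3 rose and 5 fell in the labelled double deletion. The ada2 shares, 18.2% each way, lay near the 22.7% and 23.0% of all genes, and those of the labelled double deletion, 27.3% and 45.5%, near 36.1% and 37.1%. In nup60 they were 45.5% and 18.2%, against 25.1% and 26.2%. In the fit without the 2 arrays 5 rose and 4 fell in nup60 (45.5% and 36.4%, against 30.3% and 33.6% of all genes). In ada2 2 rose and 5 fell (18.2% and 45.5%, against 31.0% and 30.1%). In the labelled double deletion 4 rose and 5 fell (36.4% and 45.5%, against 40.7% and 39.2%). OPI10, related to the human import factor Hikeshi, rose by 0.71 ± 0.045 in nup60 (adjusted p = 4.53e-07) and by 0.68 ± 0.045 in the labelled double deletion (adjusted p = 1.37e-07). IWR1, which carries RNA polymerase II into the nucleus, rose by 0.62 ± 0.042 in the labelled double deletion (adjusted p = 1.68e-07). There UTP8, a nucleolar factor of tRNA export, fell by 0.62 (SE 0.05, adjusted p = 7.59e-07), and DIF1, an importer of ribonucleotide reductase subunits, fell by 0.58 (SE 0.098, adjusted p = 0.000267).

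**Figure D5:**
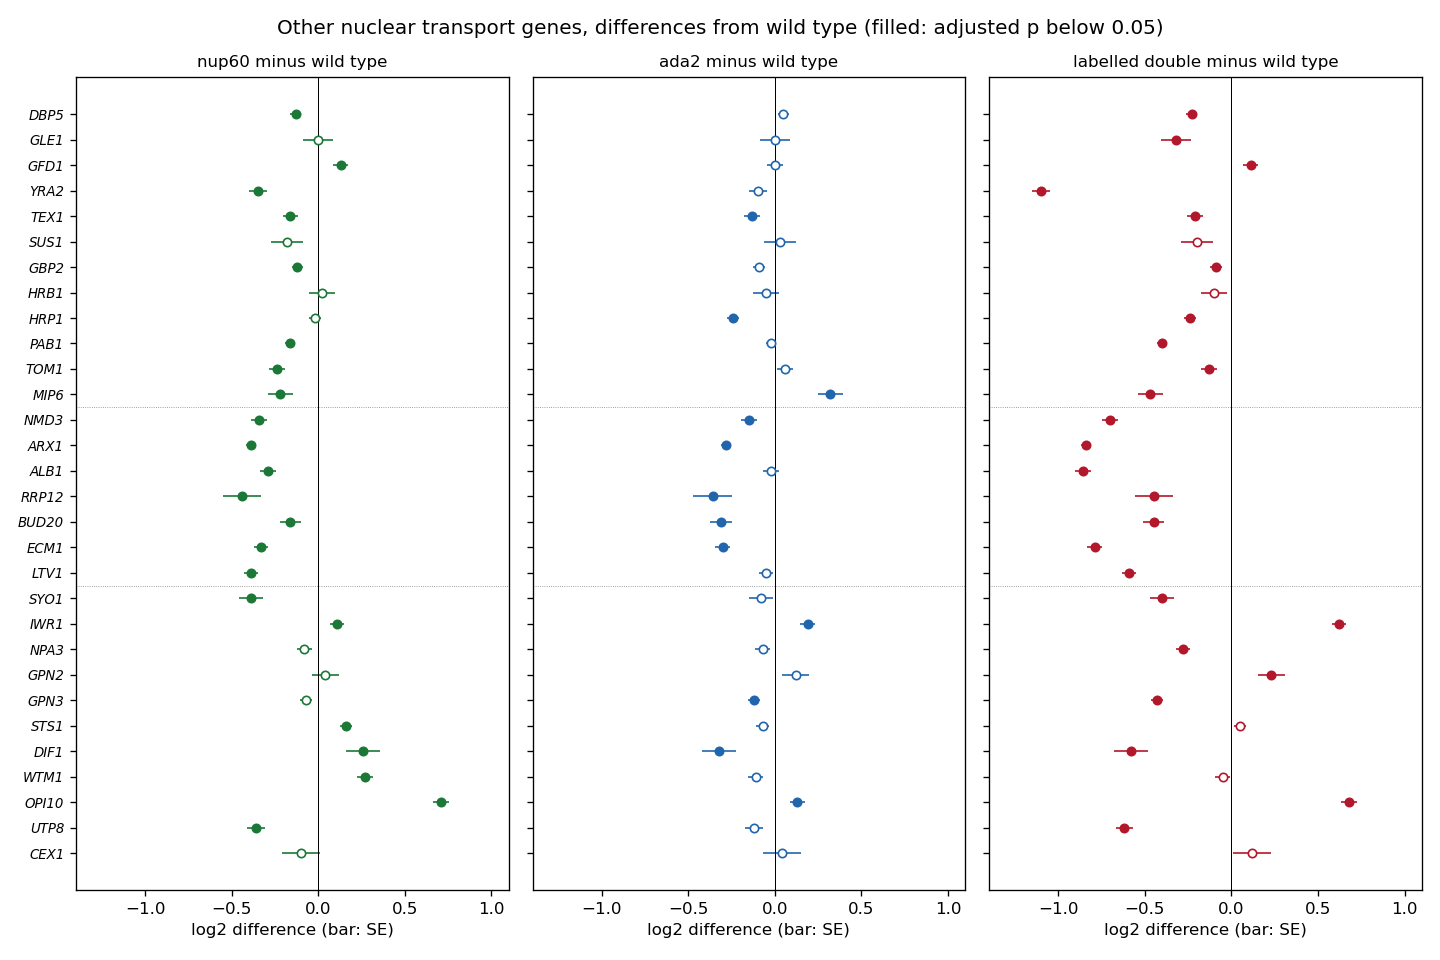
Difference from wild type (log2, bars show the standard error, 3 arrays a group) of 30 other nuclear transport genes in the nup60, ada2 and labelled double deletions, in 3 lists parted by dotted lines (12 of mRNA export, 7 of pre-ribosome export and 11 import adaptors and tRNA export genes, from the top). Filled points passed at an adjusted p below 0.05, and all 7 pre-ribosome export genes lie left of 0 in the outer panels.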

How the data were processed

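RNA was measured on 12 one-colour Affymetrix arrays, 4 groups of 3, grouped by the titles. The deposited values were linear intensities per probe set, from 11.4 to 51828, for which the submitters' processing notes name RMA and Affymetrix Expression Console 1.1. From them log2 was taken, with no further normalization. Of 10928 probe sets, 5498 named a single S. cerevisiae gene in the pairing table, and the brightest of each gene gave 5449 genes. Names and lengths came from the RefSeq R64 table, and no sequence was used. Group means were fitted over all 12 arrays with limma 3.58.1 (R 4.3.3), whose eBayes step added 2.58 prior to 8 residual degrees of freedom. Benjamini-Hochberg adjustment ran over all genes in each of 7 comparisons. The fit was tested on simulated data. Figures were made with Python 3.11.15 and matplotlib 3.10.9.

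The 38 genes and the other lists were chosen with earlier results of these data known. Values on every array are given for genes with a difference of at least 0.5 that passed, for GSP1 and for the 3 largest of each role, 20 genes in all. The number of arrays limits the precision. Replicate numbers did not pair the arrays. Same-numbered deviations correlated at -0.73 to 0.37, and 1 of 12 arrays correlated best with its own number. The alternatives covered normalization, moderation, array weights, probe set choice, dim genes, the replicate block and arrays left out.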

Additional observations from a re-analysis of the deposited data

Results flagged for a closer look

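For 9 genes the effect of the nup60 deletion differed between strains with and without ADA2, by the interaction term of limma. Among the 38 genes 3 lay above the sum and 2 below (7.89% and 5.26%, against 20.6% and 18.5% of all genes). The interaction was 0.24 for SRP1, 0.46 for CRM1, 0.27 for YRB2, -0.35 for MOG1 and -0.44 for NPL3. Of the 30 other genes 1 lay above the sum and 10 below (3.33% and 33.3%). Those at 0.5 or more in size were chosen: -0.65 for YRA2, -0.56 for MIP6, -0.55 for ALB1 and -0.51 for DIF1. Without wild-type array 1 and labelled double array 3 all 9 still passed, at 0.19 for SRP1, 0.32 for CRM1, 0.16 for YRB2, -0.21 for MOG1, -0.45 for NPL3, -0.55 for YRA2, -0.69 for MIP6, -0.48 for ALB1 and -0.31 for DIF1. These values set arrays of the other mating type and with URA3 against arrays without them, which cannot be told apart from the loss of both genes. The YRB2 call was lost under 7 of 22 alternatives and that of MOG1 under 5.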

How the results depend on the processing

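Of 113 differences that passed among the 38 genes, 82 did so under all 23 alternatives, 85 whichever single array was left out, and 94 under every alternative that left out no single array. Leaving out dim genes or shared-sequence probe sets, averaging probe sets, and robust moderation changed no call among these genes. Except for robust moderation, these settings hardly test the calls, though they are counted among the 23. Each of these genes has a single probe set, unmarked for shared sequence and above background on every array, so its own values stayed the same. Signs turned in 3 cases, all of which passed only in the alternative fit and so are not among the 113. Turns where neither fit passed were not counted. SRP1 in the labelled double deletion against wild type was 0.07 with array weights (adjusted p = 0.0391). The interaction of LOS1 was -0.19 with array weights (adjusted p = 0.02) and -0.21 without the 2 arrays with high spikes (adjusted p = 0.00328).

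Counts of genes that passed also moved. With array weights 5 genes rose in nup60, 6 in ada2 and 7 in the labelled double deletion against wild type. The same setting gave 10 higher in the labelled double deletion than in nup60, 10 higher and 16 lower in nup60 than in ada2, and 6 above and 6 below the sum in the interaction. Without the 2 arrays 5 rose in ada2 (31.0% of all genes) and 5 lay below the sum (22.6%). In that fit 8 were higher and 17 lower in nup60 than in ada2 (32.8% and 36.7% of all genes). Fitting only the groups compared gave 8 higher and 16 lower in nup60 than in ada2. Median centring and quantile normalization each gave 4 below the sum. The causes were not tested.

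Leaving out 1 array at a time gave 3 to 4 higher and 12 to 19 lower in nup60 against wild type, 1 to 4 and 6 to 13 in ada2, and 4 to 5 and 18 to 21 in the labelled double deletion. Against nup60 the labelled double deletion had 3 to 8 and 11 to 12, and against ada2 4 to 7 and 15 to 21, when 3051 to 3777 and 3460 to 4049 of all genes passed. From ada2 to nup60 the ranges were 4 to 6 and 6 to 14, and for the interaction 2 to 6 and 1 to 4. Of all genes 2455 to 3256 and 1642 to 2160 passed in these. A count moved by over 1.5 times in these cases. In ada2 1 rose without ada2 array 2, and 6 fell without ada2 array 1 or 3. The labelled double deletion had 8 higher than nup60 without wild-type array 1 and 3 without nup60 array 1, and nup60 had 14 lower than ada2 without wild-type array 1. In both comparisons the fit without wild-type array 1 also passed the most of all genes. In the interaction 5 lay above the sum without wild-type array 3 and 6 without labelled double array 1, while 1 lay below it without any single nup60 array or ada2 arrays 1 or 2, and 4 without labelled double arrays 1 or 2.

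The numbers do not pair the arrays, and with the replicate number as a block 3 genes rose and 12 fell in nup60, 10 calls were lost over all comparisons and none was gained.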
